A study of Mus musculus with 12 samples.

Results

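Enzymes of serine synthesis and of folate one-carbon metabolism were examined in C2C12 cells, an established line of mouse myoblasts. The set holds 9 genes, chosen by symbol in the authors' deposited table of 26271 loci, with earlier results of these data known. The genes are Phgdh, Psat1 and Psph for serine synthesis, Shmt1 and Mthfd1 for the cytosolic folate branch, and Shmt2, Mthfd2, Mthfd1l and Aldh1l2 for the mitochondrial folate branch. Each symbol was found in 1 row, alone in its locus, meaning that the row lists no other symbol. The cells were cultured for 24 h in DMEM whose sugar was glucose at 25 mM (the high glucose group), glucose at 5 mM (low glucose) or galactose at 10 mM (galactose). Every medium also contained 1 mM sodium pyruvate, 10% fetal bovine serum and 1% penicillin and streptomycin. PolyA RNA of 4 libraries per group was sequenced, and the labels do not say whether these were separate cultures of the 1 cell line. The design text of the series describes muscle stem cells instead; the sample labels were followed.

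Serine is made in the cytosol from a glycolytic intermediate in a chain of enzymes: PHGDH oxidises 3-phosphoglycerate, PSAT1 adds an amino group from glutamate, and PSPH removes the phosphate. Serine hydroxymethyltransferases then pass the side-chain carbon of serine to tetrahydrofolate, SHMT2 in mitochondria and SHMT1 in the cytosol. In mitochondria the carbon is oxidised by MTHFD2 and released as formate by MTHFD1L, or oxidised to carbon dioxide by ALDH1L2 with production of NADPH. In the cytosol the trifunctional enzyme MTHFD1 takes up the formate for purine, thymidylate and methyl group synthesis. In proliferating cells the mitochondrial branch usually supplies formate to the cytosolic branch, and several of these genes are known targets of the transcription factor ATF4.

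The deposited table holds 1 pooled value per group for each locus, in FPKM, a fragment count scaled by transcript length and by sequencing depth, so levels of different genes can be compared per length. Each pair of groups also carries a test result of the authors. A gene was called higher or lower where the authors' test was made and its q-value, the adjusted p-value over all tests, was below 0.05. The lowest q-value in the authors' deposited table was 0.000239, shared by 9204 of 44006 tests. Because single libraries are not listed, no SD can be given, the depth is unknown, and the q-values are those of the authors for these libraries. The 3 comparisons share groups and are not independent of one another.

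The myoblast label was checked against markers. All 6 myoblast markers were listed at 1 FPKM or more in at least 1 group, and their summed level in the authors' deposited table was 750, 490.3 and 396 FPKM for high glucose, low glucose and galactose. Des made up the larger part of this sum, at 456, 308 and 268 FPKM. The myoblast sum moved opposite to the enzymes. Fibroblast markers summed to 85.1, 53.6 and 35.1 FPKM in the same order, mostly from Pdgfrb and Col1a1. Of the other fibroblast markers, Thy1 was listed at 0 and Dcn below 1 FPKM in every group. The markers of differentiated muscle that were alone in their locus summed to 20 FPKM in high glucose, 12.7 FPKM in low glucose and 33.4 FPKM in galactose. Most of that sum was Acta1, at 16.1, 11.1 and 30.2 FPKM. From high glucose to galactose 1 of these markers, Acta1, was called higher and 1, Myog, was called lower, from 3.61 to 2.78 FPKM. Of the adipocyte, endothelial, hepatocyte and macrophage markers alone in their locus, none reached 1 FPKM. The other macrophage markers gave no value: Cd68 lies in a locus combined with a translation factor gene, and Adgre1 was not found by its symbol. The part of these marker changes in the results below was not tested. In bulk RNA, a change in the share of cells with a transcript and a change in its amount per cell cannot be told apart.

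All 9 members were called higher in low glucose and in galactose than in high glucose, with different median changes in the 2 branches. Their promoters are shown as a description. RefSeq promoter sequences (build GRCm38.p6) were found for 8 of the 9 members, in 9 windows since Psat1 has 2 start sites in that set. The RefSeq gene of Mthfd2 begins farther upstream than its window's start site, at base 83326011. So do those of Mthfd1 (76254406), Psph (129787443) and Mthfd1l (3972892). The windows of these genes therefore lie partly or wholly inside the RefSeq gene, and windows before the outer starts were not searched. For 7 of the 9 windows the start site equals the first transcribed base of the locus in the deposited table. The sequences below are the 250 bases before the start of Psat1 (chr19:15925060-15925309, minus strand), Mthfd2 (chr6:83317605-83317854, minus strand), Shmt2 (chr10:127522445-127522694, minus strand) and Mthfd1 (chr12:76254982-76255231, plus strand), each 5′ to 3′ on the strand of the gene. They stand for the serine chain, for the mitochondrial branch and for the cytosolic branch, in which Mthfd1 had the smallest change. Capitals mark CCAAT boxes, read as CCAAT or, on the opposite strand, ATTGG.
Psat1: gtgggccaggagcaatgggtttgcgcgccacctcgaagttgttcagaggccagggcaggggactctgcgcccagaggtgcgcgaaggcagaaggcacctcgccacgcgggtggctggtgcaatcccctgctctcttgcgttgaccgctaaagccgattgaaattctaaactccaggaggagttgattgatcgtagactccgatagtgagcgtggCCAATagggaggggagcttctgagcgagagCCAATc
Mthfd2: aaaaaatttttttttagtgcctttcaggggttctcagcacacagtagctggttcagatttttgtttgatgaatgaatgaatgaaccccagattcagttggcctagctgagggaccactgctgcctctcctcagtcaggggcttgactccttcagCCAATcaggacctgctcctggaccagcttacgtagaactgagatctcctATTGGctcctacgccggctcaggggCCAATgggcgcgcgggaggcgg
Shmt2: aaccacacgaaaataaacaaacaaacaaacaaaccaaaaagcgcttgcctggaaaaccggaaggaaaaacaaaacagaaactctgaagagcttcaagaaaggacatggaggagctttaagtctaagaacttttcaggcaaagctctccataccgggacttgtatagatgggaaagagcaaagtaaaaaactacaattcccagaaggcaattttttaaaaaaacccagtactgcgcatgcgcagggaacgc
Mthfd1: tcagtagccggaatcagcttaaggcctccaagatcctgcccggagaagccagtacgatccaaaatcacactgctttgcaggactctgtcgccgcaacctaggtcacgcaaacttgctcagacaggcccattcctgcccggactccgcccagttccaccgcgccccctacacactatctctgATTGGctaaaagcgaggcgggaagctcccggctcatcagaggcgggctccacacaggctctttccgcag

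Both strands of the 250-base windows were searched for 4 motifs that did not overlap one another in any member. A CCAAT box, the site of the factor NF-Y, was present in 6 of the 9 member windows, against 33.8% of 32851 promoters of the same length. Mthfd2 held 3 CCAAT boxes, whose first bases lie 96, 47 and 22 bases before the start. Psat1 held 2 at its upstream start, Mthfd1 held 1, and Shmt2 and Mthfd1l held none. The composite element bound by ATF4 with C/EBP factors (TGATGNAA) was in 0 of the 9 windows, against 3.45% of all promoters. The cyclic AMP response element (TGACGTCA) and the E-box of MYC (CACGTG) were also in 0 of the 9 windows, against 1.55% and 6.02% of all promoters. Shares this low leave few matches to be found in any 9 promoters. The counts of 0 are therefore not read as particular to the members. These matches describe letters in a window and not binding. Sites outside these windows, in introns or farther upstream, were not searched.

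In high glucose, the members spanned from 7.27 FPKM for Aldh1l2 to 119 FPKM for Phgdh in the authors' deposited table. Phgdh, Shmt2 and Psat1 stood at the top, Mthfd2, Mthfd1 and Mthfd1l in the middle, and Psph, Shmt1 and Aldh1l2 at the bottom. The order changed with the medium. Shmt2 was at the top in low glucose and in galactose, and Shmt1 was at the bottom in both. Aldh1l2 went from the lowest level in high glucose to a level next to that of Mthfd1l in galactose, which the authors' deposited table lists at 76.9 and 76.6 FPKM. Differences between genes within a medium were not tested, because the table gives no spread.

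**Figure D1:**
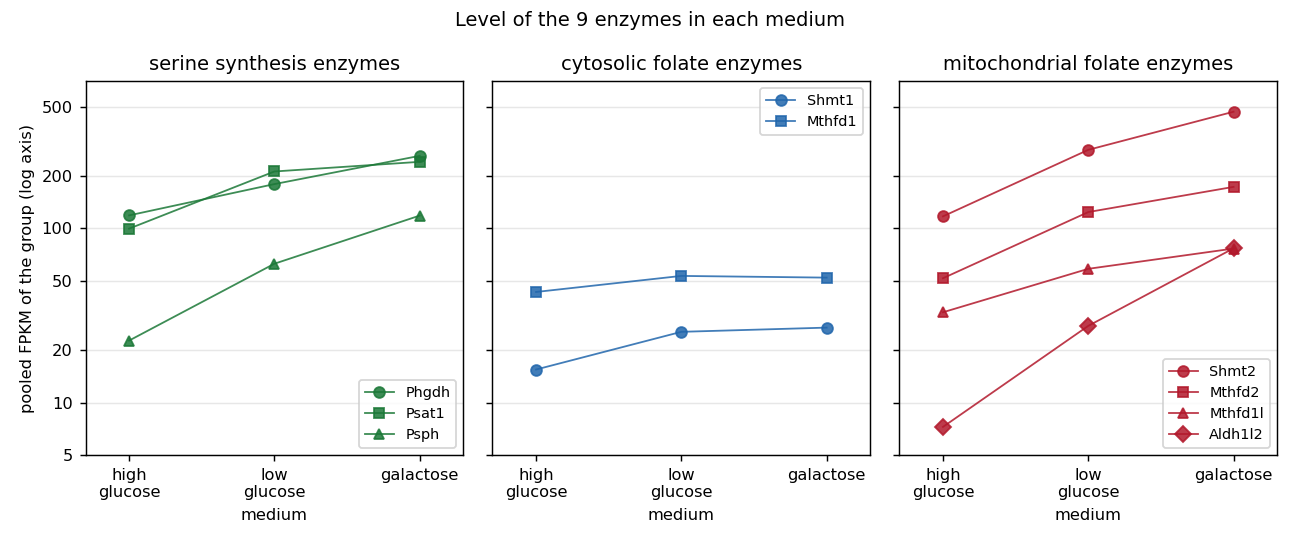
Pooled FPKM of each enzyme (y axis, log scale) in the 3 media (x axis), 1 point per gene and group with no error available, in panels for serine synthesis, cytosolic folate and mitochondrial folate enzymes. The mitochondrial panel spans 7.27 to 467 FPKM and climbs across the media, while Shmt1 and Mthfd1 stay between 15.5 and 53.4 FPKM.

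The 3 serine synthesis genes were higher in both low glucose and galactose than in high glucose. Phgdh, the entry enzyme of the chain, was listed by the authors' deposited table at 119, 179.5 and 261 FPKM for high glucose, low glucose and galactose. It was thus 1.51-fold higher in low glucose, and in galactose its log2 change was 1.13 (q = 0.000239 for each in the authors' deposited table). Psat1, the aminotransferase, was listed by the authors' deposited table at 99.7, 212 and 241 FPKM. Most of its difference was already present in low glucose, at 2.13-fold, and galactose was 1.14-fold above low glucose (q = 0.0208 in the authors' deposited table). Psph, the phosphatase that releases serine, was listed by the authors' deposited table at 22.7, 62.7 and 118 FPKM. Its folds were the largest of the chain, 2.76 in low glucose and 5.21 in galactose, and it rose a further 1.89-fold between low glucose and galactose (q = 0.000239 for each in the authors' deposited table).

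The fold of Psph, at the end of the chain, exceeded that of Phgdh, at its entry, in all 3 comparisons. Psph was the lowest of the serine synthesis genes in each medium. The summed level of all 3 genes went from 241 FPKM in high glucose to 454 FPKM in low glucose and was 2.57-fold the high glucose sum in galactose.

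The 4 mitochondrial folate genes were also higher in both media, and each was higher again in galactose than in low glucose. Shmt2, which starts the mitochondrial branch, was listed by the authors' deposited table at 117, 282 and 467 FPKM for high glucose, low glucose and galactose. These are folds of 2.41 and 3.98 over high glucose and of 1.65 from low glucose to galactose. Mthfd2, the dehydrogenase and cyclohydrolase of the branch, was listed by the authors' deposited table at 51.8, 124 and 173 FPKM. It was 2.40-fold higher in low glucose, 3.34-fold higher in galactose and 1.40-fold higher in galactose than in low glucose. Mthfd1l, the synthetase that releases formate, was listed by the authors' deposited table at 33.0, 58.6 and 76.6 FPKM, with folds of 1.77, 2.32 and 1.31 in the 3 comparisons. It was the mitochondrial member with the smallest change. Aldh1l2, the formyltetrahydrofolate dehydrogenase, was listed by the authors' deposited table at 7.27, 27.6 and 76.9 FPKM. It was 3.80-fold higher in low glucose, 10.6-fold higher in galactose and 2.78-fold higher in galactose than in low glucose. Each of these 12 comparisons had q = 0.000239 in the authors' deposited table.

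Among all tested loci ordered by fold change, Aldh1l2 stood at place 44 of 14699 from high to low glucose, 54 of 14812 from high glucose to galactose and 149 of 14495 from low glucose to galactose. Shmt2 stood at places 123, 144 and 550 in the same comparisons, and Mthfd2 at 126, 198 and 1128.

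The 2 cytosolic folate genes were called higher in both media, but by less, and not between low glucose and galactose. Shmt1, the cytosolic hydroxymethyltransferase, was listed by the authors' deposited table at 15.5, 25.5 and 27.0 FPKM for high glucose, low glucose and galactose, folds of 1.65 and 1.74 over high glucose. Low glucose and galactose differed by a log2 change of 0.08 (q = 0.674 in the authors' deposited table). Mthfd1, the trifunctional enzyme, was listed by the authors' deposited table at 43.2, 53.4 and 52.2 FPKM, folds of 1.24 and 1.21 over high glucose. Between low glucose and galactose its log2 change was -0.03 (q = 0.741 in the authors' deposited table). A q-value above the threshold does not show that the levels were equal. Mthfd1 stood at place 1927 from high to low glucose and 3731 from high glucose to galactose among all tested loci.

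From high to low glucose, all 9 members were called higher, where 18.3% of 14699 tested loci were called higher and 23% of those with a group value of at least 5 FPKM. The median log2 change was 1.09 over the members and 0.01 over all tested loci. From high glucose to galactose all 9 were again called higher, against 26.5% of 14812 tested loci and 32% of those at 5 FPKM or more, with medians of 1.27 and 0.01. From low glucose to galactose 7 of 9 were called higher and 0 lower, against 17.4% called higher of 14495 tested loci and 18.5% at 5 FPKM or more. The medians of that comparison were 0.48 and 0.01. A call with a log2 change of at least 1, a doubling, was reached by 5 members in low glucose against high glucose, where 0.864% of tested loci reached it. It was reached by 7 members in galactose against high glucose, against 3.27% of tested loci, and by 1, Aldh1l2, in galactose against low glucose, against 1.69%. The members and the lists read below were chosen with earlier results of these data known. The shares set beside them are therefore a description and not a test.

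**Figure D2:**
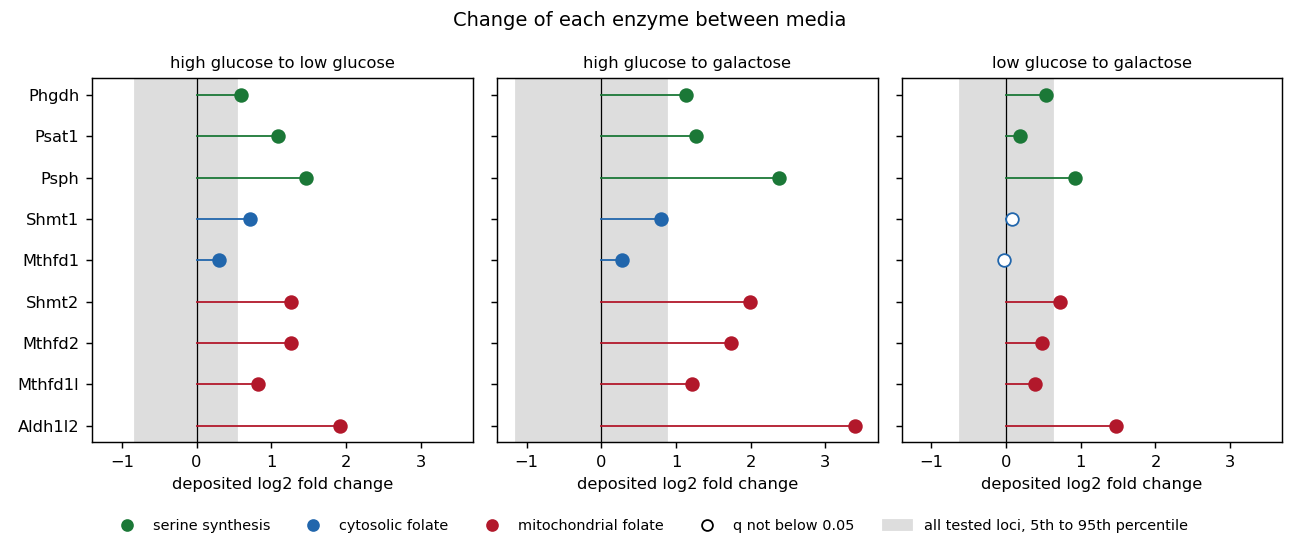
Deposited log2 fold change of each enzyme (x axis) in the 3 comparisons, coloured by branch, with open circles where q was not below 0.05 and a grey band from the 5th to the 95th percentile of all tested loci. All mitochondrial points lie right of both cytosolic points in each panel, and the open circles are Shmt1 and Mthfd1 in the last panel.

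Mitochondrial against cytosolic folate enzymes gave the following contrast. From high to low glucose the median log2 change was 1.26 for the 4 mitochondrial genes, with a range of 0.83 to 1.92, and 0.51 for the 2 cytosolic genes, which lay at 0.31 and 0.72. From high glucose to galactose the medians were 1.87, with a range of 1.21 to 3.40, and 0.54, from 0.27 and 0.80. From low glucose to galactose they were 0.60, with a range of 0.39 to 1.48, and 0.02, from -0.03 and 0.08. In each comparison the mitochondrial member with the smallest change lay above both cytosolic members. The order was the opposite among the other folate genes of the list: the 10 tested mitochondrial folate and glycine genes had median log2 changes of 0.09, 0.05 and 0.09 in the 3 comparisons, and the 10 tested cytosolic folate genes had medians of 0.24, 0.33 and 0.13. The serine synthesis genes had medians of 1.09, 1.27 and 0.54. The summed FPKM of the mitochondrial genes was 209 in high glucose and 492 in low glucose and 793 in galactose, and that of the cytosolic genes was 58.7, 78.9 and 79.2. Whether the branches differ beyond the spread between libraries was not tested, since no value per library is given.

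Ratios between related enzymes restate this contrast gene by gene, since they come from the same pooled values. For high glucose, low glucose and galactose, the FPKM ratio of Shmt2 to Shmt1 was 7.56, 11.1 and 17.3. The ratio of Mthfd2 to Mthfd1 was 1.20, 2.32 and 3.31. The ratio of Mthfd1l to Mthfd1, 2 genes whose products share a formyltetrahydrofolate synthetase domain, went from 0.765 in high glucose to 1.10 in low glucose and 1.47 in galactose. The order of this pair was thus opposite in high glucose and in galactose. Aldh1l1, the cytosolic relative of Aldh1l2, was listed by the authors' deposited table at 0.0666, 0.0427 and 0.0279 FPKM and was not tested by the authors' tool. At such levels a ratio is not informative. Mthfd2l, a mitochondrial relative of Mthfd2, was listed by the authors' deposited table at 4.82, 5.67 and 7.01 FPKM, in a locus combined with the growth factor gene Epgn. Mthfd2 was 10.8, 21.9 and 24.7 times that locus.

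**Figure D3:**
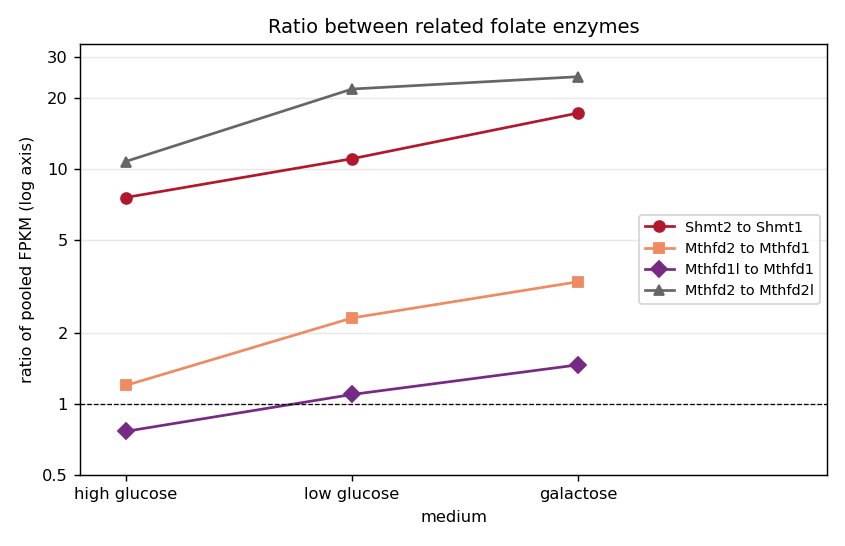
Ratio of pooled FPKM (y axis, log scale) between related enzymes in the 3 media (x axis), with a dashed line at equal levels and no error available. The Shmt2 to Shmt1 ratio goes from 7.56 to 17.3 and the Mthfd1l to Mthfd1 line crosses from 0.765 to 1.47; Mthfd2l was read from a combined locus.

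A list of 39 other genes of folate, glycine, serine and methionine metabolism was read in the same way, and 31 of them were tested in each comparison. The 8 untested genes were at 0.163 FPKM or lower in every medium, among them Gldc, the decarboxylase of the glycine cleavage system. From high to low glucose 13 of 31 were called higher (41.9%) and 5 lower, against 18.3% higher and 18.2% lower of all tested loci. From high glucose to galactose 13 were higher (41.9%) and 6 lower, against 26.5% and 24.8%. From low glucose to galactose 11 were higher (35.5%) and 7 lower, against 17.4% and 16%. Their median log2 changes were 0.17, 0.06 and 0.11 in the same order, and 0 of 31 doubled in low glucose.

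Serine carriers of the plasma membrane, with only 2 tested genes, were the group of this list with the largest median changes. Slc1a5, a transporter of neutral amino acids, was listed by the authors' deposited table at 18.0, 35.2 and 64.7 FPKM for high glucose, low glucose and galactose. Slc1a4, a carrier of alanine, serine and cysteine, was listed by the authors' deposited table at 19.4, 32.4 and 42.2 FPKM. Both were called higher in all 3 comparisons. The reduced folate carrier gene Slc19a1 was called higher in low glucose and galactose, with 17.3, 28.9 and 31.4 FPKM listed in the authors' deposited table. Slc46a1, the proton-coupled folate transporter gene, was called lower in both, with 7.75, 5.81 and 6.39 FPKM listed in the authors' deposited table.

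Of the 10 other mitochondrial genes tested, 3 were called higher and 2 lower from high to low glucose, where 18.3% of all tested loci were called higher and 18.2% lower. From high glucose to galactose 4 were called higher and 2 lower, against 26.5% and 24.8% of all tested loci. From low glucose to galactose 4 were called higher and 2 lower, against 17.4% and 16%. Slc25a32, the mitochondrial folate carrier gene, was called higher in low glucose but not in galactose, with 10.3, 12.9 and 9.83 FPKM listed in the authors' deposited table. Sfxn1, which encodes a mitochondrial serine carrier, was called higher in both, with 36.8, 44.7 and 47.0 FPKM listed in the authors' deposited table. Its relatives did not share this: Sfxn3, at 36.7, 33.9 and 35.5 FPKM, was not called in any comparison. Sfxn2 was called lower from high glucose to galactose, from 3.88 to 2.90 FPKM. In the glycine cleavage system, Gcsh was called higher in galactose, from 17.2 to 22.3 FPKM as listed in the authors' deposited table. Amt, its aminomethyltransferase, lies in a locus combined with Nicn1 that was called lower in galactose, from 12.0 to 8.50 FPKM as listed in the authors' deposited table.

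Of the 10 cytosolic folate genes of the list that were tested, 5 were called higher and 0 lower from high to low glucose, against 18.3% and 18.2% of all tested loci. From high glucose to galactose 6 were called higher and 1 lower, against 26.5% and 24.8%, and from low glucose to galactose 4 higher and 2 lower, against 17.4% and 16%. Atic, a purine synthesis enzyme that uses formyl folate, was listed by the authors' deposited table at 97.8, 136 and 176 FPKM. Fpgs, which retains folates in the cell by adding glutamates, was listed by the authors' deposited table at 21.6, 29.7 and 34.3 FPKM. Tyms, the thymidylate synthase gene, was called lower from low glucose to galactose, from 64.0 to 49.3 FPKM as listed in the authors' deposited table. The methionine cycle and serine use genes are a separate group of the list, with 7 tested genes. From high to low glucose 2 of these were called higher and 2 lower, against 18.3% and 18.2% of all tested loci. From high glucose to galactose 0 were called higher and 2 lower, against 26.5% and 24.8%. From low glucose to galactose 1 was called higher and 3 lower, against 17.4% and 16%. Their median log2 changes were -0.19, -0.13 and -0.17 in the 3 comparisons. Among them, Cbs, which takes homocysteine towards cysteine, was called lower in galactose, from 0.445 to 0.170 FPKM as listed in the authors' deposited table.

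**Figure D4:**
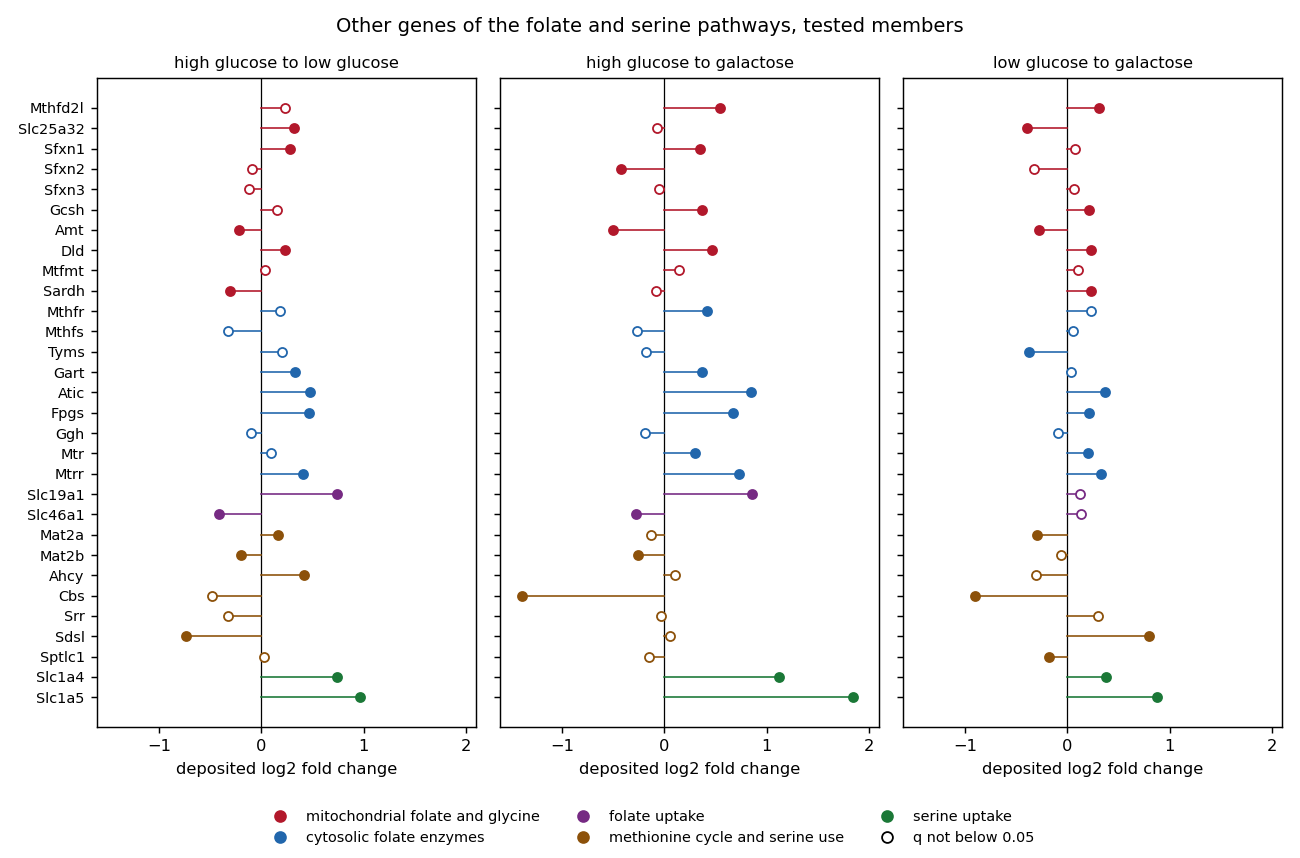
Deposited log2 fold change (x axis) of tested genes of the wider folate, glycine, serine and methionine list in the 3 comparisons, coloured by role, with open circles where q was not below 0.05. Slc1a5 lies farthest right among these genes in each comparison, and Cbs lies farthest left in both comparisons with galactose.

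Of 8 transcription factor genes read in the same way, Atf4 was listed by the authors' deposited table at 294, 437 and 585 FPKM for high glucose, low glucose and galactose. It was called higher in all 3 comparisons, as were Atf3, Atf5, Cebpb and Ddit3. In these comparisons 18.3%, 26.5% and 17.4% of all tested loci were called higher. Myc was listed by the authors' deposited table at 44.2, 72.8 and 78.2 FPKM and was called higher in low glucose and in galactose, but not between them (q = 0.205). Mycn was below 0.1 FPKM and not tested, and Nfe2l2, which encodes NRF2, was called higher in galactose by 0.24 on the log2 scale per the authors' deposited table. Whether any of these factors acts on the members in these cells was not tested.

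Patterns over the 3 media were compared by the distance between log2 ratios of low glucose and of galactose to high glucose. The 7967 loci compared were tested in all 3 comparisons, were above 0 in every group and at 5 FPKM or more in at least 1, and held a single symbol that is not of a predicted gene, RIKEN clone, miRNA or snoRNA. The closest to Mthfd2 was Aldh18a1, a proline synthesis gene, at a distance of 0.026, with 27.3, 66.4 and 92.0 FPKM listed in the authors' deposited table. The closest to Shmt2 were Pycr1, Slc7a5 and Eif4ebp1, at distances of 0.142, 0.153 and 0.174. The closest to Psph were Ank2, Asns and Sesn2, at 0.0781, 0.107 and 0.215. Asns, the asparagine synthetase gene, was listed by the authors' deposited table at 46.2, 134 and 227 FPKM. Psat1 was closest to Gpr56, Glce and Bcat1, at 0.0718, 0.0805 and 0.136, and Phgdh to Pdcd2, Btbd1 and Fbln2, at 0.00963, 0.0292 and 0.0328. Mthfd1l was closest to Yars, a tyrosyl-tRNA synthetase gene, at 0.0424, and Shmt1 to Myc at 0.0259. The closest to Aldh1l2 were Vldlr, Wdr26 and Tpsab1, at 0.189, 0.277 and 0.437. Vldlr, Wdr26 and Ank2 were below 5 FPKM in high and in low glucose and entered only through their galactose value, and Pycr1 was below it in high glucose. The nearest genes to Mthfd1, led by Prpf31, lay within 0.00276 of it. No member was among the 3 closest of any other member. Each pattern rests on 3 pooled values from the same libraries.

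The loci lie as follows in the deposited table (mm10). Phgdh (XLOC_015098) is at chr3:98313164-98339984, Psat1 (XLOC_011760) at chr19:15904658-15925059 and Psph (XLOC_018266) at chr5:129765558-129787253. Shmt2 (XLOC_002546) is at chr10:127512229-127522444, Mthfd2 (XLOC_019473) at chr6:83305704-83317604, Mthfd1l (XLOC_001518) at chr10:3973075-4167081 and Aldh1l2 (XLOC_002397) at chr10:83476017-83534140. Mthfd1 (XLOC_004765) is at chr12:76255232-76319820 and Shmt1 (XLOC_003840) at chr11:60737473-60811265. The Shmt1 span of 73793 bases is longer than its gene of 23615 bases in GENCODE M21 and is shared with the separate rows of Top3a and Smcr8. Top3a was listed by the authors' deposited table at 8.32, 8.43 and 7.16 FPKM, and Smcr8 at 11.4, 11.6 and 14.6 FPKM. The Shmt2 span likewise holds Ndufa4l2, whose own row lies at 0.299 FPKM or lower.

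Some members share sequence with other genes, and how reads were divided between these is not stated. Strand-specific counting is not stated either, so reads from genes that overlap on opposite strands cannot be told apart. The GENCODE gene D10Wsu102e, on the opposite strand, shares 1056 identical transcript bases with the end of Aldh1l2. That gene was listed by the authors' deposited table at 20.1, 27.4 and 24.5 FPKM, while Aldh1l2 spanned 7.27 to 76.9 FPKM. Transcripts of Cct6a and Psph share 452 identical bases on opposite strands, and Cct6a was listed by the authors' deposited table at 197, 253 and 271 FPKM. Phgdh has 20 annotated pseudogenes with at least 90% identity over 200 bases or more, up to 98.7%, and its values are uncertain to that extent. Only 2 of them have a row of their own, at 0.0657 FPKM or lower.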

How the data were processed

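RNA of 12 C2C12 libraries, 4 per medium, was sequenced from polyA libraries made with the NEBNext Ultra kit, per the labels' protocols. Per the submitters' processing notes, TopHat2 2.0.10, Cufflinks 2.2.0 and Cuffdiff were used with mm10; their settings are not given in the sources used here. The authors' deposited table gives FPKM values pooled per group, a log2 fold change without pseudocount, a test score that was not used, and p-values and q-values. The deposited q-values equal a Benjamini-Hochberg adjustment over all 44006 tests of the 3 comparisons to within 5.3e-07.

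The members and lists were chosen with earlier results of these data known. A symbol was read from its row with the highest summed FPKM. Named genes are the members, a list of 39 pathway genes, 8 transcription factors, cell type markers and, for each member, up to 3 loci of similar pattern. One pathway gene, included in the counts, is not reported here by name or in the figure. File starts were raised by 1. Near copies were sought in GENCODE M21 transcripts with BLAST 2.17.0 (at least 90% identity over 200 bases). Promoters came from RefSeq (GRCm38.p6). No test was rerun, since no value per library is given; adjustment and matching steps were tested on simulated data. Depth per library is unknown. The analysis ran in Python 3.11.15 with numpy 2.4.6, pandas 2.3.3 and matplotlib 3.10.9.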

Additional observations from a re-analysis of the deposited data

How the results depend on the processing

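No paired analysis was possible because the deposited table holds 1 pooled value per group and no column per library; for the same reason no library could be left out. All 9 members were called higher in low glucose and in galactose against high glucose, and 7 of 9 from low glucose to galactose, also at q below 0.01 with the exception of Psat1 in the last comparison (6 of 9), with a group value of at least 1 FPKM and with adjustment within each comparison. A call that also needs an absolute log2 change of at least 1, which is stricter by construction, left 5 members from high to low glucose and 1 from low glucose to galactose, and 7 from high glucose to galactose. Under that rule the wider list had 0 genes higher and 0 lower in low glucose against high glucose, 2 higher and 1 lower in galactose against high glucose, and 0 higher and 0 lower in galactose against low glucose. At q below 0.01 the wider list had 3 lower from high to low glucose and 7 higher from low glucose to galactose. A pseudocount of 1 FPKM moved no member's log2 change by more than 0.167, and re-centring on the median of all tested loci moved it by about 0.01 or less; no direction changed for a member or a branch median. The ratio of Aldh1l2 to Aldh1l1, which rests on values of Aldh1l1 below 0.1 FPKM, was 109, 647 and 2760 in high glucose, low glucose and galactose, and 7.76, 27.4 and 75.8 with that pseudocount.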
